A study of Mus musculus with 4 samples.

Results

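The genes described here encode potassium channels and voltage-gated calcium and sodium channels. A member was any gene whose symbol began with Kcn (leaving out the noncoding Kcnq1ot1), Cacna or Cacnb, or consisted of Scn, a number and a or b. The annotation held 129 such genes, 126 of them protein-coding. H3K27me2 peaks were assigned to members through the gene identifier of the peak lists, which names the gene with the nearest transcription start site. Of the 56036 peaks in 4 lists, 586 were assigned to a channel gene, and 91 of the 129 genes received at least 1 peak.

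H3K27me2, the dimethylated form of lysine 27 on histone H3, was profiled by ULI-NChIP-seq, in which nucleosomes are released from native chromatin of very few cells with MNase, precipitated with an antibody and sequenced. Zygotes at the last pronuclear stage, freed of polar bodies, were obtained by fertilizing eggs of C57BL/6J females in vitro with sperm of PWK/PhJ males. Mothers of Ezh2m+/p+ zygotes were Ezh2 fl/fl, and mothers of Ezh2m-/p+ zygotes were Ezh2 fl/fl;Gdf9-Cre, in which Cre expressed in the oocyte deletes the floxed exon; sperm carried intact Ezh2 in both groups. Each genotype had 1 H3K27me2 library and 1 input library from pooled zygotes, reads were divided between the C57BL/6 (maternal) and PWK (paternal) genomes at strain variants, and peaks were called in each genome. The maternal and paternal lists of a genotype therefore share a library, no difference between genotypes has a replicate check, and no p-value is given. The genotype of a list was taken from its name, and the length of each list equals the peak number recorded for that genotype and genome in the study's reporting form. The study's display of annotation categories, however, pairs the shares found in these lists with the opposite genotypes. The deletion of Ezh2 cannot be checked in peak positions, so every direction between genotypes given here holds for the lists as named and would reverse if the names were exchanged. Depth of the parental genomes is not part of the lists. For whole libraries, the study's reporting form gives a lower depth for Ezh2m-/p+ than for Ezh2m+/p+ zygotes, in both H3K27me2 and input.

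Voltage-gated channels open when the membrane potential changes. Sodium channels carry the upstroke of the action potential in nerve and muscle, calcium channels link depolarization to secretion, contraction and gene expression, and potassium channels bring the membrane back to rest and set its excitability. Most pore-forming subunits work with auxiliary subunits that alter trafficking and gating, and many of the genes are long, with large introns. H3K27me2 is deposited by Polycomb repressive complex 2, whose catalytic subunit is EZH2 or EZH1, and is a widespread mark of silent and intergenic chromatin.

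Sequences are shown for promoters wholly under a paternal peak in both genotypes, for the promoter that touched a maternal peak and for centres of high-fold peaks. They were taken from the GRCm38 reference of C57BL/6J, with CpG dinucleotides in capitals. The RefSeq promoter table held 130 windows of 300 bp for 95 channel genes, each running from upstream of a start site to just inside the transcript. A window wholly inside a paternal peak in both genotypes was found for Kcnh1, which encodes a voltage-gated potassium channel of the EAG family, for Kcnk2, which encodes the mechanosensitive leak channel TREK-1, and for Kcnj9, which encodes a G-protein-coupled inward rectifier. Kcnt2, which encodes a sodium-activated potassium channel, had the 1 channel promoter window that touched a maternal peak. Coordinates are chr1:192190527-192190826 on the plus strand for Kcnh1, chr1:189343304-189343603 on the minus strand for Kcnk2, chr1:172329273-172329572 on the minus strand for Kcnj9 and chr1:140245468-140245767 on the plus strand for Kcnt2. Each is printed in the direction of transcription.
Kcnh1 promoter: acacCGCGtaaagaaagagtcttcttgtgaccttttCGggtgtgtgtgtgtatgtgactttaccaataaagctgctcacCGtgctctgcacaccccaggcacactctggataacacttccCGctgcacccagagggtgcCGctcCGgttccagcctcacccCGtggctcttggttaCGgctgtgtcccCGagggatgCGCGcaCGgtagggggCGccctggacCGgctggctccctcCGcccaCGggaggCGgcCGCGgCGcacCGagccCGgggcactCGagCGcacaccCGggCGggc
Kcnk2 promoter: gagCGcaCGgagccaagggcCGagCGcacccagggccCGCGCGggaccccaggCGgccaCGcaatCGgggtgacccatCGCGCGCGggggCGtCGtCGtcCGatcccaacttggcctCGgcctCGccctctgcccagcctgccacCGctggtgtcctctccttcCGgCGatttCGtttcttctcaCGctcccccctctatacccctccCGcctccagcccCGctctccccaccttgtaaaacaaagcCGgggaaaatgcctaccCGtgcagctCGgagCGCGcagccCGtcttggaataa
Kcnj9 promoter: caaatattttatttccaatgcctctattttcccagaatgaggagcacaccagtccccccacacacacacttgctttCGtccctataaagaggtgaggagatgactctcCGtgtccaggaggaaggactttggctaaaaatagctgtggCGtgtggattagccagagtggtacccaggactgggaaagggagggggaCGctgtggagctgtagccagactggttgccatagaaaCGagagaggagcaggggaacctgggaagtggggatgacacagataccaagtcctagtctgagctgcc
Kcnt2 promoter: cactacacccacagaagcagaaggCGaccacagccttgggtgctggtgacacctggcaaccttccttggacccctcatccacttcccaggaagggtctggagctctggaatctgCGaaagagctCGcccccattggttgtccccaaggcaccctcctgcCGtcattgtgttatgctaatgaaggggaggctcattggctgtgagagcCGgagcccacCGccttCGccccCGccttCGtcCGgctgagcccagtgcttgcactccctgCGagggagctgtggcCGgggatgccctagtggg

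The 4 windows ran from CpG-rich to CpG-poor. The Kcnk2 window printed held 33 CpGs and the Kcnh1 window 27, whereas the Kcnt2 window held 12 and the Kcnj9 window 5. Kcnk2 had 2 further windows wholly inside the same paternal peaks, with 33 and 3 CpGs. Over all 32619 windows of the table the median was 7 CpGs and 94.7% held at least 1, and over the 130 channel windows the median was 9. Channel promoter windows touched a peak in 1 case in the Ezh2m+/p+ maternal list, 9 in the Ezh2m+/p+ paternal list, 0 in the Ezh2m-/p+ maternal list and 12 in the Ezh2m-/p+ paternal list, which is 0.769%, 6.92%, 0% and 9.23% of them. All windows of the table touched a peak in 0.797%, 3.29%, 1.31% and 4.67% of cases in the same order of lists.

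The highest-fold channel peaks of 3 of the lists lay in introns or between genes, and their centres are shown over 200 bp on the plus strand. These are chr14:30368601-30368800 in intron 1 of Cacna1d for the Ezh2m+/p+ maternal list, chr1:192212101-192212300 in intron 1 of Kcnh1 for the Ezh2m+/p+ paternal list, and chr14:20229001-20229200 between genes near Kcnk16 for the Ezh2m-/p+ maternal list.
Cacna1d peak centre: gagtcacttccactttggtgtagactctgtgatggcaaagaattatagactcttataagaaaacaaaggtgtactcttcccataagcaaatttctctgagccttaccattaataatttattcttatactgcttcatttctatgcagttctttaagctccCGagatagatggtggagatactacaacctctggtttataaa
Kcnh1 peak centre: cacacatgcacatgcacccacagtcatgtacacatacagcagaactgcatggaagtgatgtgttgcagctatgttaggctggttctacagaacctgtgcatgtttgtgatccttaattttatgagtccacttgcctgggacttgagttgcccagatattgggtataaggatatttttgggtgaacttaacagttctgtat
Kcnk16 peak centre: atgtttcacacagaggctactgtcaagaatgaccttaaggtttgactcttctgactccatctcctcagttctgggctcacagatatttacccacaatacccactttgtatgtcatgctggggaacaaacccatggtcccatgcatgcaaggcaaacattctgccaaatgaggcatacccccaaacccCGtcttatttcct
The stretches at Cacna1d and Kcnk16 held 1 CpG each and that at Kcnh1 held 0, with a GC content of 36.0%, 46.5% and 43.0%, respectively.

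Channel genes took a similar small share of every list. They received 78 of 5744 peaks of the Ezh2m+/p+ maternal list, 1.36% (95% Wilson interval 1.09 to 1.69), and 178 of 17863 peaks of the Ezh2m+/p+ paternal list, 0.996% (0.861 to 1.15). In Ezh2m-/p+ zygotes they received 110 of 9606 maternal peaks, 1.15% (0.951 to 1.38), and 220 of 22823 paternal peaks, 0.964% (0.845 to 1.10). The intervals of these shares overlapped between genotypes in each parental genome, and they cover counting error within a library only.

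A larger share of channel genes than of protein-coding genes in general carried a peak. Of the 129 genes, 43 and 53 had a maternal and 43 and 41 a paternal peak in Ezh2m+/p+ and Ezh2m-/p+ zygotes. With protein-coding genes on both sides, 42 of 126 channel genes (33.3%) had a maternal peak in Ezh2m+/p+ zygotes, against 14.6% of all 21631 protein-coding genes. In Ezh2m-/p+ zygotes 52 of 126 (41.3%) had a maternal peak, against 21.1%. On the paternal genome 43 of 126 (34.1%) had a peak in Ezh2m+/p+ zygotes, against 20.3%, and 40 of 126 (31.7%) in Ezh2m-/p+ zygotes, against 23.8%. Channel genes were also longer, with a median of 47.4 kb over the 126 against 17.3 kb.

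Among the 21 channel genes of 300 kb and over, 14 (66.7%) had a maternal peak in each genotype, against 48.7% and 54.0% of all genes of that length in Ezh2m+/p+ and Ezh2m-/p+ zygotes. On the paternal genome 10 of the 21 (47.6%) had a peak in each genotype, against 51.7% and 55.5%. Counted by peaks inside the gene, whichever gene they were assigned to, 13 (61.9%) and 16 (76.2%, Wilson interval 54.9 to 89.4) of the 21 had a maternal peak, against 49.4% and 54.8%, and 11 (52.4%) and 13 (61.9%) had a paternal peak, against 51.3% and 56.2%. Between 100 and 300 kb the channel genes lay below all genes in all 4 lists, with 33.3% against 36.5% and 42.9% against 49.4% for the maternal lists and 33.3% against 36.9% and 33.3% against 41.4% for the paternal lists of Ezh2m+/p+ and Ezh2m-/p+ zygotes. Each of these channel values rests on 21 genes. For assigned peaks the all-gene value lay inside the Wilson interval of the channel value in both classes, and for peaks inside genes of 300 kb and over it lay just below that interval in the Ezh2m-/p+ maternal list. Channel genes lay above all genes in all 4 lists from 10 to 30 kb (30 genes) and from 30 to 100 kb (33 genes). The first class had 23.3% against 11.4% and 23.3% against 17.1% (maternal), 26.7% against 17.6% and 23.3% against 21.4% (paternal). The second had 24.2% against 20.3% and 42.4% against 29.8% (maternal), 36.4% against 24.6% and 33.3% against 29.0% (paternal). The 11.4% lay just below the channel interval (11.8 to 40.9), and the others inside.

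Of the 21 channel genes under 10 kb, 6 (28.6%) had a maternal peak assigned in Ezh2m+/p+ zygotes and 8 (38.1%) in Ezh2m-/p+ zygotes, against 5.83% and 9.40% of all such genes. A maternal peak inside the gene was present in 1 (4.76%) and 0 of these 21 genes, against 1.23% and 2.35%. Paternal peaks were assigned to 6 (28.6%) and 5 (23.8%, Wilson interval 10.6 to 45.1) of them, against 13.4% and 15.8%. A paternal peak lay inside the gene in 4 genes (Wilson interval 7.67% to 40.0%) and 3 genes (4.98% to 34.6%), against 6.25% and 8.02%. Counted along gene bodies, whichever gene a peak had been assigned to, channel genes held 0.371 and 0.425 maternal peaks per 100 kb in Ezh2m+/p+ and Ezh2m-/p+ zygotes and 0.838 and 1.01 paternal peaks. All protein-coding genes held 0.305 and 0.499 maternal and 0.856 and 1.09 paternal peaks per 100 kb.

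**Figure D1:**
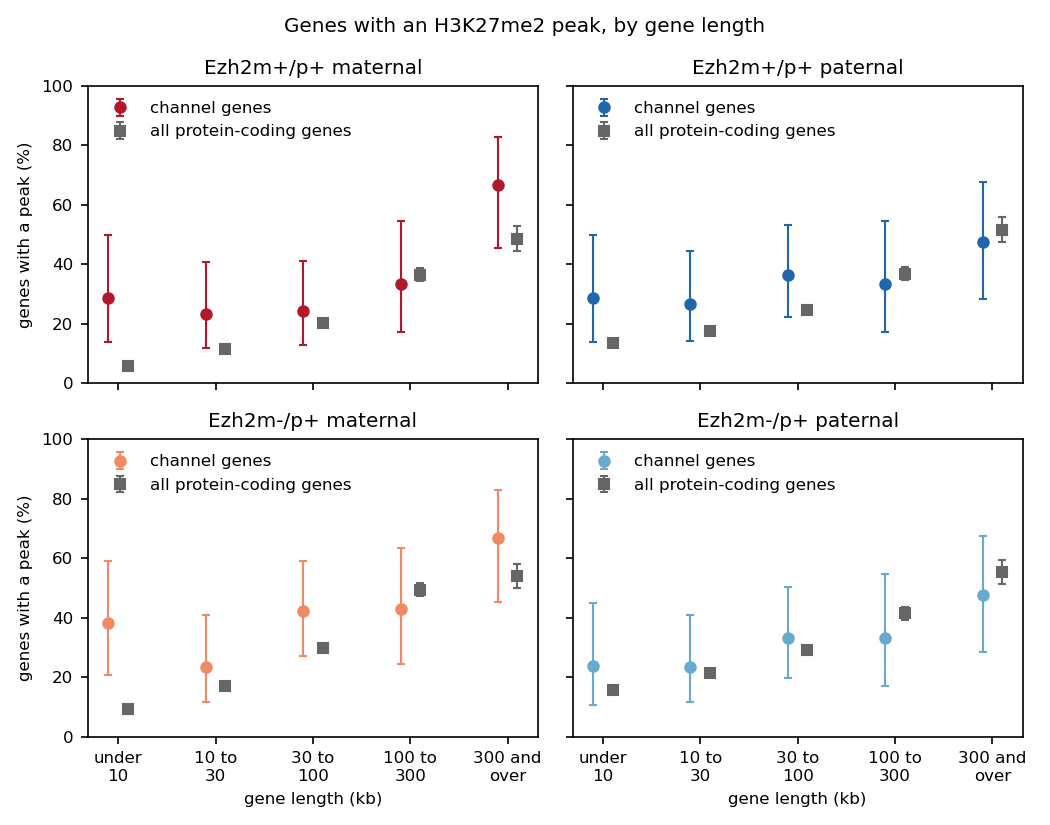
Share of genes with at least 1 assigned H3K27me2 peak (vertical axis, percent) in 5 classes of gene length (horizontal axis, kb) for each list, with channel genes as circles, all protein-coding genes as squares and 95% Wilson intervals as bars. The channel share was 66.7% in the longest class of both maternal lists and 47.6% in that of both paternal lists, and the intervals are wide because each class holds 21 to 33 channel genes.

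Other gene groups of excitable cells and of cell adhesion gave a scale for these numbers. The 101 other ion channel genes, such as the transient receptor potential and chloride channels, had a peak in 25.7%, 23.8%, 28.7% and 28.7% of cases in the Ezh2m+/p+ maternal, Ezh2m+/p+ paternal, Ezh2m-/p+ maternal and Ezh2m-/p+ paternal lists. The 50 glutamate and GABA receptor genes, with a median length of 130 kb, had one in 13, 16, 15 and 19 cases, and the 98 cadherin and protocadherin genes in 12.2%, 26.5%, 17.3% and 25.5% of cases. The Wilson intervals of the channel genes overlapped those of the other ion channels and of the receptors in every list, and those of the cadherins in the paternal lists but not in the maternal ones.

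Most channel peaks lay inside genes. The share of peaks between the start and the end of the assigned channel gene was 61.5% and 51.8% in the maternal lists and 69.1% and 65.5% in the paternal lists of Ezh2m+/p+ and Ezh2m-/p+ zygotes, against 47.3%, 46.1%, 42.7% and 42.2% of all peaks with their assigned genes. In the same order it was 67.6%, 69.6%, 62.7% and 71.1% for the other ion channel genes. The receptor genes had 52.2%, 62.5%, 62.2% and 67.9%, and the cadherin and protocadherin genes 78.3%, 62.9%, 31.7% and 34.4%. Introns held many of the channel peaks. An annotated intron, exon or UTR can belong to a neighbouring gene, and 38 of 52 and 51 of 61 maternal and 95 of 113 and 120 of 135 paternal peaks so annotated lay inside the assigned gene. Introns after the first held 73 of 178 paternal peaks (41.0%) in Ezh2m+/p+ zygotes and 75 of 220 (34.1%) in Ezh2m-/p+ zygotes, against 18.5% and 17.8% of all peaks. On the maternal genome they held 26 of 78 (33.3%) and 27 of 110 (24.5%), against 21.1% and 21.5%. Distal intergenic peaks made up 14 of 78 maternal peaks (17.9%, Wilson interval 11.0 to 27.9) in Ezh2m+/p+ zygotes and 40 of 110 (36.4%, 28.0 to 45.7) in Ezh2m-/p+ zygotes, while over all maternal peaks the share was 33.9% and 35.8%. In the paternal lists they made up 33 of 178 (18.5%) and 59 of 220 (26.8%), against 40.2% and 40.7%.

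Fold, length and base composition of channel peaks are given beside those of their lists. Their median fold over input was 7.20 and 22.2 in the maternal lists and 36.1 and 13.8 in the paternal lists of Ezh2m+/p+ and Ezh2m-/p+ zygotes, beside 7.37, 23.7, 36.1 and 15.8 for all peaks. Their median length was 2799 and 2599 bp on the maternal and 1799 bp in both genotypes on the paternal genome, beside 2999, 2199, 1799 and 1999 bp for all peaks. Their median GC content was 45.6% and 45.9% in the maternal lists and 46.9% and 45.9% in the paternal lists, beside 45.5%, 45.6%, 44.7% and 44.0%. Folds took few distinct values. The 178 paternal peaks of Ezh2m+/p+ zygotes had 49 distinct folds, and 27 of these peaks shared the value 48.1. Whether a fold in one list is on the same footing as the same fold in another was not tested.

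**Figure D2:**
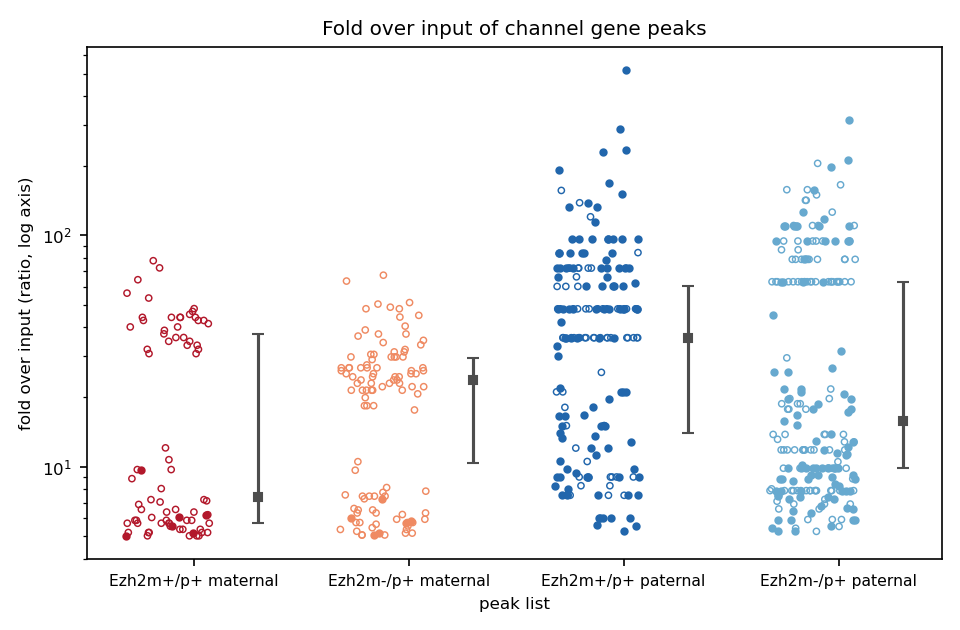
Fold over input on a log axis for every peak assigned to a channel gene, by list, with filled circles for peaks that overlap a peak of the other genotype in the same parental genome, open circles for the rest, and grey squares with bars for the median and quartiles of all peaks of the list. Maternal folds fell into a low and a high group with the overlapping peaks in the low one, and the highest paternal fold, 518, belonged to Kcnh1.

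Of the 91 genes with a peak, 44 had maternal peaks alone, 21 had paternal peaks alone and 26 had both, so that 26 of the 47 genes with a paternal peak also had a maternal one. Among the 89 protein-coding ones 48.3% had maternal peaks alone, 23.6% paternal peaks alone and 28.1% both. Over all 9805 protein-coding genes with a peak these shares were 41.6%, 39.9% and 18.4%. Within Ezh2m+/p+ zygotes 13 genes were shared, 30.2% of the 43 maternal and 30.2% of the 43 paternal genes. In Ezh2m-/p+ zygotes 21 were shared, 39.6% of the 53 maternal and 51.2% of the 41 paternal genes. Over all protein-coding genes the shared genes were 27.2% of maternal and 19.6% of paternal genes in Ezh2m+/p+ zygotes and 28.9% and 25.6% in Ezh2m-/p+ zygotes.

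No channel peak of one parental genome overlapped a peak of the other. The count was 0 of 78 maternal and 0 of 178 paternal peaks in Ezh2m+/p+ zygotes, which allows shares of up to 3.85% and 1.69% by the limit of 3 counts of the total (Wilson upper limits 4.69% and 2.11%), and 0 of 110 and 0 of 220 in Ezh2m-/p+ zygotes, which allows up to 2.73% and 1.36% (Wilson upper limits 3.37% and 1.72%). Overlap was rare over all peaks as well, at 0.418% and 0.14% of maternal and paternal peaks in Ezh2m+/p+ zygotes and 0.416% and 0.18% in Ezh2m-/p+ zygotes. Where a gene had peaks of both genomes they were apart. The closest maternal and paternal peaks of a gene were separated by a median of 40.0 kb over the 13 genes of Ezh2m+/p+ zygotes, up to 390 kb at Kcnn2, and by 13.2 kb over the 21 genes of Ezh2m-/p+ zygotes, from 1.20 kb at Cacna1d to 130 kb at Kcnh8. All genes with peaks of both genomes had medians of 25.2 and 19.2 kb.

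The 8 genes with peaks in every list included Cacna1c, Cacna1d, Cacna2d3, Kcna2, Kcna4, Kcnq3 and Kcns2. A further 18 genes were assigned maternal peaks in both genotypes and no paternal peak, among them Kcnma1, Kcnq5, Cacnb2, Cacnb4, Cacna1b, Cacna1e and Kcnk3. Paternal peaks assigned to other genes lay in the bodies of Kcnq5 (4 and 5), Kcnip1 (1 and 1) and Kcnab1 (0 and 1), which are among the 18. Paternal peaks in both genotypes with no maternal peak were assigned to 14 genes, among them Kcnk2, Kcnf1, Scn8a, Cacna2d2, Cacna1h, Kcnk12, Kcnn1 and Kcnh2. Between genotypes the genes with a peak were shared in 26 cases on the maternal genome, 60.5% of the 43 genes of Ezh2m+/p+ and 49.1% of the 53 genes of Ezh2m-/p+ zygotes. On the paternal genome 37 were shared, 86.0% of 43 and 90.2% of 41. The same shares over all protein-coding genes were 57.8% and 40.1% on the maternal and 86.8% and 74.1% on the paternal genome.

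**Figure D3:**
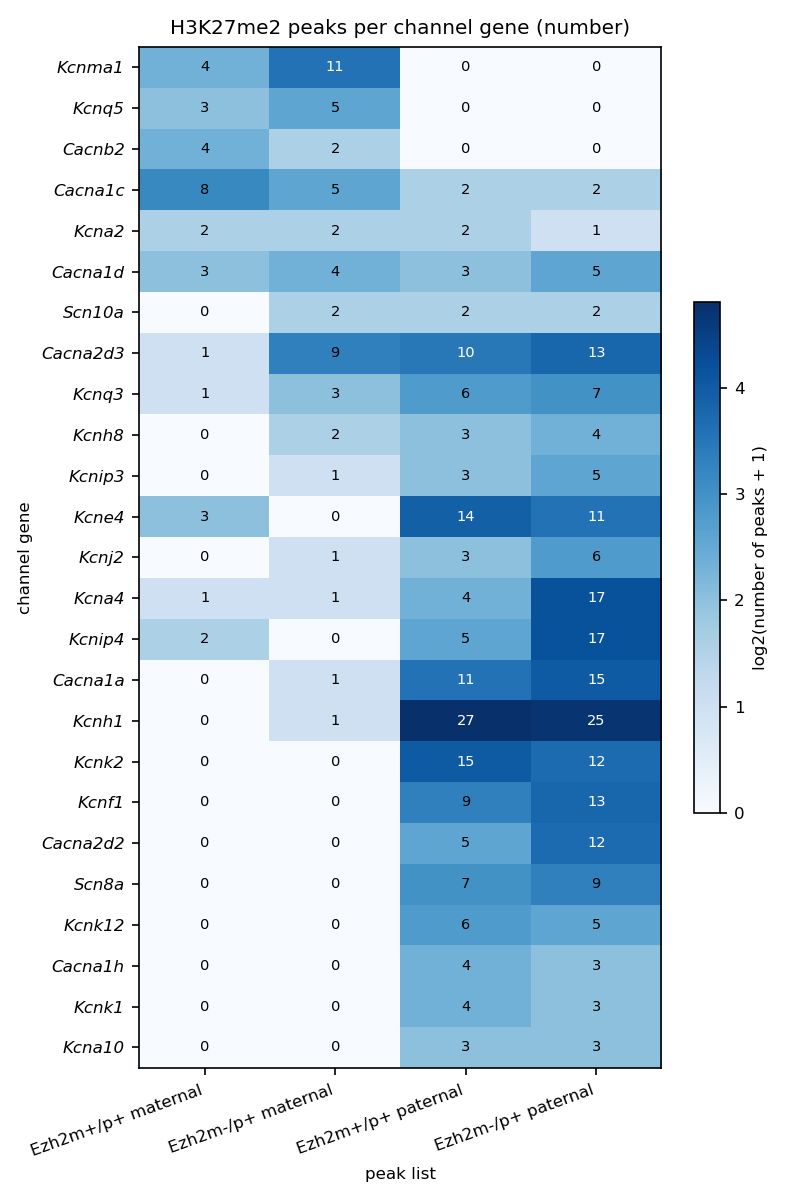
Number of H3K27me2 peaks (cell values, shaded by log2 of the number plus 1) for 25 of the 26 channel genes with at least 6 peaks over the 4 lists, ordered from mostly maternal at the top to mostly paternal at the bottom. Kcnma1 had 4 and 11 maternal peaks and 0 paternal peaks, and Kcnh1 had 27 and 25 paternal peaks beside 0 and 1 maternal peaks.

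At the level of single peaks, positions were shared between genotypes on the paternal genome and rarely on the maternal one. Of the 178 paternal channel peaks of Ezh2m+/p+ zygotes 109 (61.2%, Wilson interval 53.9 to 68.1) overlapped a paternal peak of Ezh2m-/p+ zygotes, and 97 of 220 (44.1%, 37.7 to 50.7) did so the other way, against 66.1% and 45.7% of all peaks. On the maternal genome 6 of 78 (7.69%, 3.57 to 15.8) and 6 of 110 (5.45%, 2.52 to 11.4) overlapped, against 9.47% and 5.78% of all peaks. The background value lay inside the interval of the channel value in every list. The shares depend on the peaks admitted. With lists of equal size the paternal overlap was 16.9% of Ezh2m+/p+ and 19.2% of Ezh2m-/p+ channel peaks, with a fold over 10 it was 30.3% and 27.9%, and with a reciprocal overlap of 50% it was 35.4% and 28.6%. The maternal overlap was 0% in both lists with equal sizes or a fold over 10. None of these alternatives was run for all peaks. Whether all peaks show the same drop was not tested. Overlapping peaks had a higher median fold than the others in the Ezh2m+/p+ paternal list (48.1 beside 36.1) and a lower one in the Ezh2m-/p+ paternal list (11.3 beside 17.7), the Ezh2m+/p+ maternal list (5.78 beside 8.46) and the Ezh2m-/p+ maternal list (5.78 beside 22.9). They were longer in all 4 lists, with a median of 3399 bp beside 2799 bp and 3299 bp beside 2599 bp in the maternal lists and 1999 bp beside 1399 bp and 2599 bp beside 1599 bp in the paternal lists of Ezh2m+/p+ and Ezh2m-/p+ zygotes. A longer peak has more positions at which it can overlap by 1 bp. Each maternal median of overlapping peaks rests on 6 peaks, and these medians were not computed over all peaks.

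The 6 maternal overlaps lay at 5 genes. Cacna1c held 2 of them, one of 2599 bp in an exon and one of 6399 bp in a 5′ UTR as measured in Ezh2m+/p+ zygotes. The others lay in intron 1 of Cacna1e, which encodes the R-type calcium channel, in an intron of Sergef next to Kcnc1, which encodes a fast delayed rectifier, in an intron of Kcnma1 and between genes near Kcnk10. Their folds ran from 5.03 to 9.72 in Ezh2m+/p+ zygotes and from 5.07 to 7.27 in Ezh2m-/p+ zygotes, so all 6 belonged to the low group of maternal folds.

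Voltage-gated potassium channel alpha subunits, which form the pore, were the largest role with 40 genes. They had 21 and 29 maternal peaks and 59 and 79 paternal peaks in Ezh2m+/p+ and Ezh2m-/p+ zygotes. Kcnh1 alone gave 52 of the 138 paternal peaks of both genotypes. Of the 40 genes 27 had a peak, 13 on the maternal genome alone, 5 on the paternal genome alone and 9 on both. For comparison, 45.3% of all protein-coding genes had a peak in some list, of which 41.6% were maternal only, 39.9% paternal only and 18.4% both. Over all roles, lists of equal size gave 0.371 maternal and 0.279 paternal peaks per 100 kb of channel gene in Ezh2m+/p+ zygotes. In Ezh2m-/p+ zygotes they gave 0.219 and 0.176. The cut to equal size kept the peaks of highest fold and took away the greater length of the paternal lists. The same densities were not computed for all genes, so no result about channel genes is drawn from them.

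**Figure D4:**
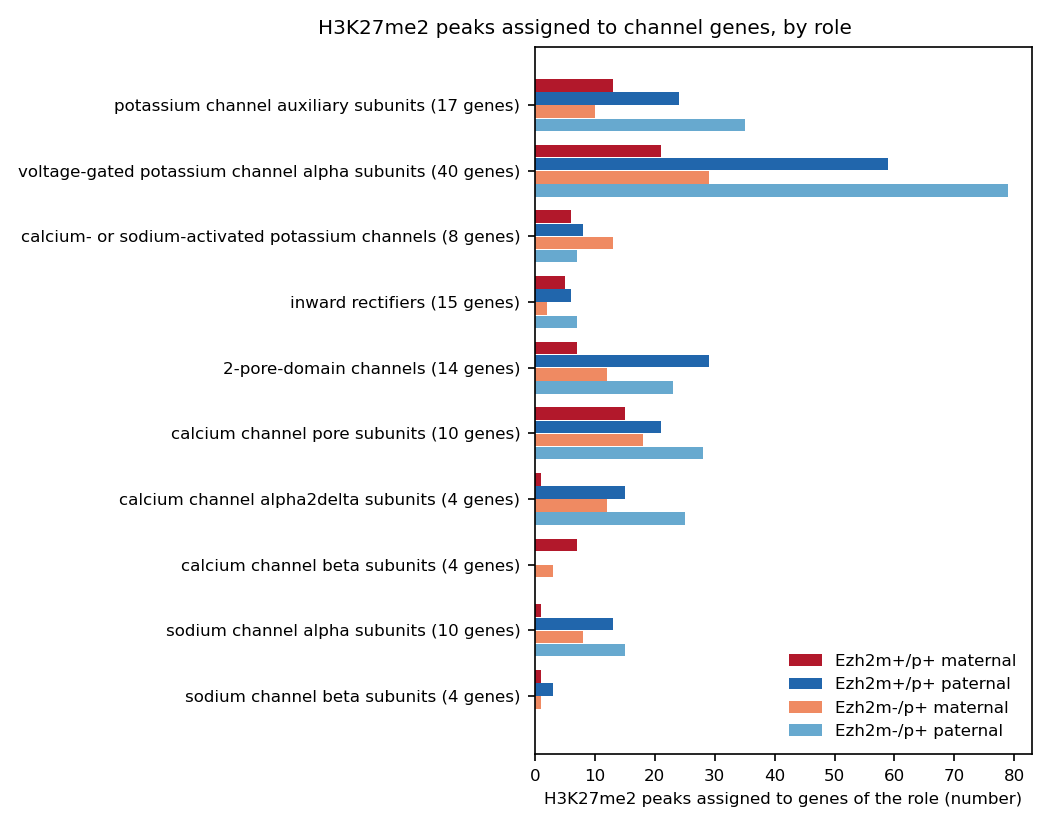
Number of H3K27me2 peaks (horizontal axis) assigned to the genes of each channel role (vertical axis, with the number of genes), 1 bar for each list. Paternal bars exceeded maternal ones for most roles and the paternal lists were also longer (17863 and 22823 peaks against 5744 and 9606), whereas the calcium channel beta subunits had 7 and 3 maternal peaks and 0 paternal peaks in both genotypes.

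Kcnh1 (chr1:192189144-192510159, 321 kb) had the most peaks of any channel gene. The paternal genome carried 27 peaks in Ezh2m+/p+ zygotes and 25 in Ezh2m-/p+ zygotes, and the maternal genome 0 and 1. Of the 27, 21 lay in introns, 22 overlapped a paternal peak of the other genotype, and peaks covered 25.9% of the gene; in Ezh2m-/p+ zygotes 18 of 25 overlapped and 33.5% of the gene was covered. The peak in intron 1 of 10 (chr1:192208001-192216399) had a fold of 518, the highest of all 17863 peaks of its list, and a second one in intron 6 had a fold of 289. In Ezh2m-/p+ zygotes the highest Kcnh1 fold was 213, at 1.58 kb from the start site, and the longest peak spanned 23799 bp.

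Over the 4 lists the chromosome of Kcnh1 carried more channel peaks than any other. Chromosome 1 held 58 of 178 paternal channel peaks in Ezh2m+/p+ zygotes (32.6%, against 13.7% of all peaks of the list) and 50 of 220 in Ezh2m-/p+ zygotes (22.7% against 11.5%), and 11 channel genes. Apart from Kcnh1, these paternal peaks were mostly those of Kcnk2 and Kcne4. Kcnk2 (chr1:189207930-189402782, 195 kb) had 15 and 12 paternal peaks and 0 maternal peaks in both genotypes. Of the 15, 13 lay in introns and 12 overlapped the other genotype, and a peak of 6199 bp in Ezh2m+/p+ zygotes and 19999 bp in Ezh2m-/p+ zygotes covered the promoter window printed above. Kcnj9 and Kcnj10, neighbouring inward rectifier genes on the same chromosome, were overlapped by paternal peaks of 26999 and 26599 bp in Ezh2m+/p+ zygotes and of 27799 and 29799 bp in Ezh2m-/p+ zygotes, all assigned to other genes. The start site of Kcnj9 lay inside its peaks, which had been assigned to the neighbouring Igsf8.

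Among the other voltage-gated alpha subunits Kcna4, which encodes an A-type channel, had 4 paternal peaks in Ezh2m+/p+ zygotes and 17 in Ezh2m-/p+ zygotes, all distal intergenic, and 1 maternal peak in each genotype. Kcnf1, a single-exon gene for a silent subunit, had 9 and 13 paternal peaks and 0 maternal peaks. Kcnq3, which encodes a subunit of the M-current, had 6 and 7 paternal and 1 and 3 maternal peaks. Kcnq5, of the same family, had 3 and 5 maternal peaks; its body also held 4 and 5 paternal peaks that had been assigned to the neighbouring Khdc1b. For the 514 kb Kcnd2 the lists held 0 peaks.

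The auxiliary subunits of potassium channels had 13 and 10 maternal and 24 and 35 paternal peaks over 17 genes, and 2 genes gave most of the paternal ones. Kcne4, which encodes a short single-pass regulator and spans 3.12 kb, had 14 and 11 paternal peaks and 3 and 0 maternal peaks, and 13 of the 14 and all 11 lay outside the gene. Kcnip4, a calcium-binding modulator of A-type channels and the longest gene of the set at 1136 kb, had 5 paternal peaks in Ezh2m+/p+ zygotes and 17 in Ezh2m-/p+ zygotes, of which 0 overlapped, and 2 and 0 maternal peaks. Of the 17, 13 lay in the introns. Its body also held 1 maternal peak of Ezh2m-/p+ zygotes (fold 23.7) that had been assigned to 5730480H06Rik.

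Kcnma1, which encodes the large-conductance calcium-activated BK channel (chr14:23292288-24005110, 713 kb), had the most maternal peaks of a gene with none on the paternal side. The maternal genome carried 4 peaks in Ezh2m+/p+ zygotes and 11 in Ezh2m-/p+ zygotes, of which 3 and 8 lay in introns. A single pair overlapped between the genotypes. Folds ran from 5.03 to 44.2 in Ezh2m+/p+ zygotes and from 5.16 to 29.8 in Ezh2m-/p+ zygotes, and 1.49% and 4.09% of the gene was covered. All 8 calcium- or sodium-activated genes had a peak in some list, as did 70.6% of the 126 protein-coding channel genes and 45.3% of all protein-coding genes. Their lengths ran from 15.4 kb at Kcnn4 to the 713 kb of Kcnma1, with a median of 121 kb. In the class of 100 to 300 kb, which holds that median, 76.8% of all genes had a peak in some list. Of the 8, 3 had peaks on the maternal genome alone and 4 on the paternal genome alone. The latter included Kcnn1, Kcnn3 and Kcnn4 of the small- and intermediate-conductance family. They also included Kcnu1, whose body held 1 maternal peak of Ezh2m+/p+ zygotes that had been assigned to Ash2l.

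The 2-pore-domain channels, which carry the resting leak current, had 7 and 12 maternal and 29 and 23 paternal peaks over 14 genes. Kcnk2 accounted for 27 of the 52 paternal peaks and Kcnk12 for 11. Kcnk10 and Kcnk13 were maternal in both genotypes, and a peak of Kcnk10 at 2.29 kb from a start site in Ezh2m-/p+ zygotes had a fold of 63.5. Kcnk9, which encodes TASK-3 and is an imprinted gene expressed from the maternal allele in brain, had 1 paternal promoter peak (fold 60.2) in Ezh2m+/p+ zygotes. In Ezh2m-/p+ zygotes it had 2 maternal peaks (folds 24.5 and 26.8) and 1 paternal peak (fold 6.90), none of them inside the gene. Inward rectifiers, which set the resting potential, had the fewest peaks among the larger groups, with 5 and 2 maternal and 6 and 7 paternal peaks over 15 genes, and Kcnj11, the pore of the ATP-sensitive channel of beta cells, had 0.

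**Figure D5:**
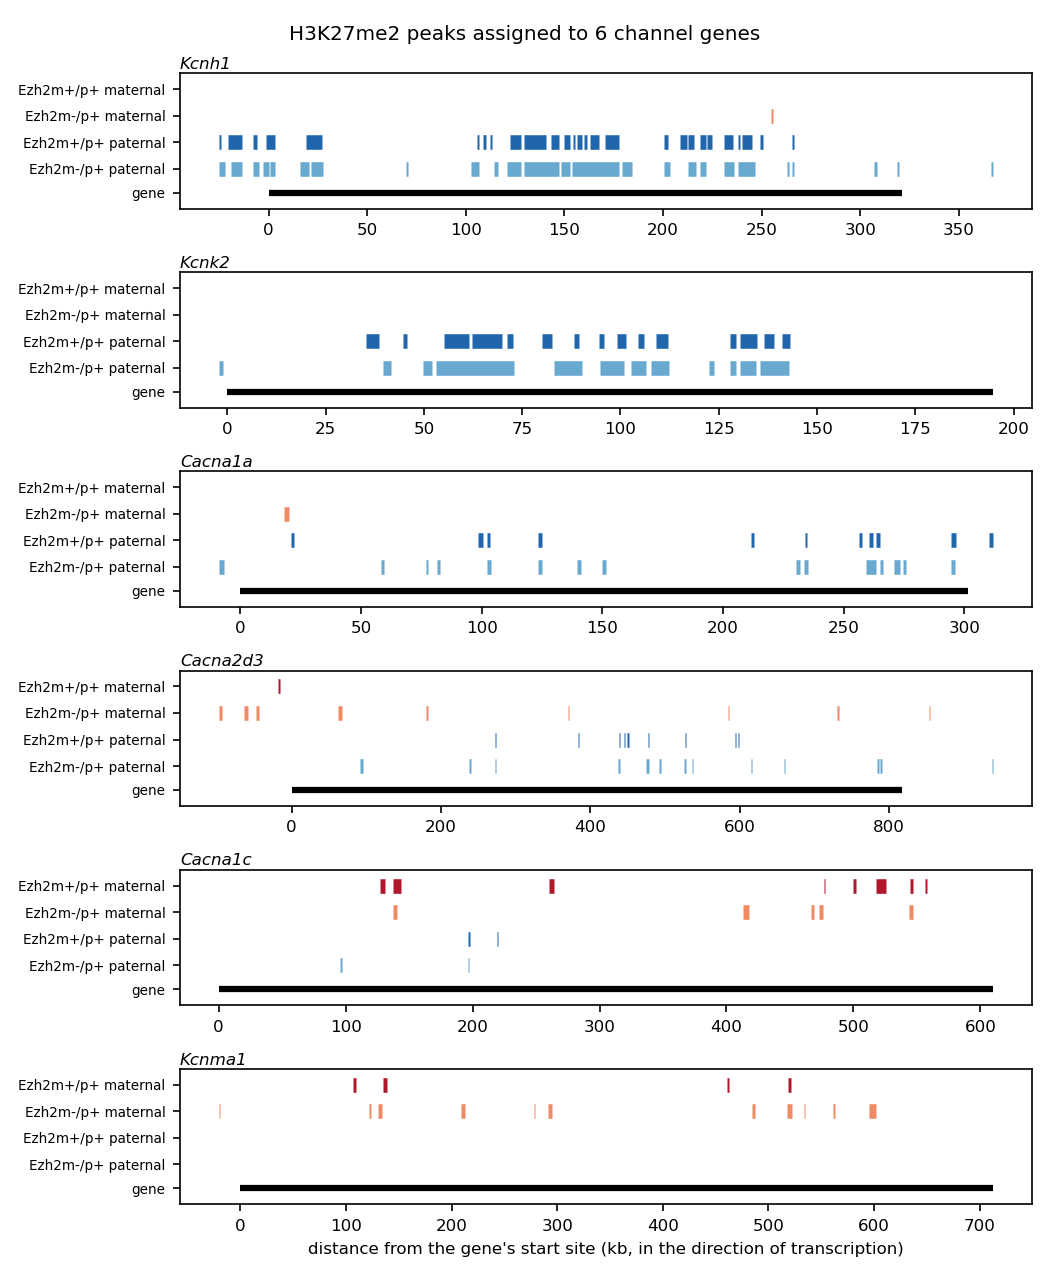
Peaks assigned to 6 channel genes, drawn to scale as distance from the start site of the gene in kb (horizontal axis), 1 row for each list, with the gene as a black bar. Paternal peaks of Kcnh1 and Kcnk2 formed dense runs at like positions in both genotypes, whereas maternal peaks of Cacna1c and Kcnma1 were scattered and mostly differed in position between genotypes.

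Kcnq1, the cardiac and epithelial potassium channel gene of the imprinted domain on distal chromosome 7, received no assigned peak. Its 320 kb body held 2 maternal peaks in each genotype and 0 paternal peaks. In Ezh2m+/p+ zygotes these had folds of 7.37 and 5.03 and were assigned to 4933417O13Rik. In Ezh2m-/p+ zygotes both had a fold of 28.3, and 1 of them (chr7:143281601-143284399) lay in the exon of Kcnq1ot1, the antisense noncoding RNA made from the paternal allele, and was assigned to it. The positions of the peaks differed between the genotypes.

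Calcium channel pore subunits had 15 and 18 maternal and 21 and 28 paternal peaks over 10 genes, and individual genes were weighted to one parent or the other. Cacna1c, the L-type channel of heart, smooth muscle and neurons (chr6:118587240-119197384, 610 kb), had 8 and 5 maternal and 2 and 2 paternal peaks. It had the most maternal peaks of any channel gene in Ezh2m+/p+ zygotes, and its longest peak there was 7799 bp. The Cacna1c body held 3 and 4 paternal peaks, since some in intron 1 were assigned to Dcp1b (fold 169 in Ezh2m+/p+ zygotes). The related Cacna1d had 3 and 4 maternal and 3 and 5 paternal peaks, and its intron 1 peak had the highest maternal channel fold of Ezh2m+/p+ zygotes, 77.7. The Cacna1d body held 5 and 7 maternal peaks, since some were assigned to Dcp1a. Cacna1a, which encodes the P/Q-type channel of nerve terminals (chr8:84338631-84640251, 302 kb), had 11 and 15 paternal peaks, of which 6 and 6 overlapped, and 0 and 1 maternal peaks. Cacna1b and Cacna1e, for the N- and R-type channels, had maternal peaks alone, and Cacna1h, a T-type channel, had 4 and 3 paternal peaks alone.

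Auxiliary calcium channel subunits divided between the parents. The alpha2delta subunits, which bring the pore to the surface, had 1 and 12 maternal and 15 and 25 paternal peaks over 4 genes. Cacna2d3, with 818 kb, had 1 maternal peak in Ezh2m+/p+ zygotes and 9 in Ezh2m-/p+ zygotes and 10 and 13 paternal peaks, of which 4 and 4 overlapped. Cacna2d2 had 5 and 12 paternal peaks and 0 maternal peaks. The cytoplasmic beta subunits had 7 and 3 maternal peaks, all at Cacnb2 and Cacnb4, and 0 paternal peaks; Cacnb1 and Cacnb3, of 21.5 and 16.1 kb, had none. The Cacnb2 peak of fold 72.4 in Ezh2m+/p+ zygotes was the second highest maternal channel fold of that list.

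Sodium channel alpha subunits had 1 and 8 maternal and 13 and 15 paternal peaks over 10 genes, and the paternal ones belonged to 3 genes. Scn8a, which encodes the Nav1.6 channel of the axon initial segment, had 7 and 9 paternal peaks and 0 maternal peaks. Scn10a had 2 and 2 paternal and 0 and 2 maternal peaks. The cluster of Scn1a, Scn2a, Scn3a, Scn7a and Scn9a on chromosome 2 spanned 1328 kb and held 0 peaks in 3 of the lists. In the Ezh2m-/p+ maternal list it held 4, of which 1 each was assigned to Scn1a (fold 20.7, 1.74 kb from a start site), Scn2a (fold 26.0) and Scn3a (fold 7.84).

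Peaks within 1 kb of a start site were a small part of the set. The lists held 7 such maternal peaks in Ezh2m+/p+ zygotes and 3 in Ezh2m-/p+ zygotes, and 23 and 18 paternal ones. As shares of the channel peaks of each list these were 8.97% and 2.73% (maternal) and 12.9% and 8.18% (paternal), against 9.33%, 9.43%, 10.5% and 10.9% of all peaks. None of the maternal ones overlapped between genotypes, whereas 14 of 23 paternal peaks at 9 genes and 13 of 18 at 10 genes did. Over all peaks within 1 kb of a start site 73.2% and 55.8% of paternal and 8.58% and 5.19% of maternal peaks overlapped. The paternal genes were Cacna1a, Cacna1h, Cacna1i, Kcne3, Kcnf1, Kcnh1, Kcnk2, Kcnn1 and Scn8a, with Kcnj10 added from the Ezh2m-/p+ list. Of 13 overlapping pairs with both peaks within 1 kb of a start site, the fold was higher in the Ezh2m+/p+ list in 10, as at Cacna1h with 72.2 and 5.91 and at Kcne3 with 96.3 and 9.19. It was higher in the Ezh2m-/p+ list in 3, at Kcnn1 and at 1 pair each of Cacna1a (48.1 and 94.6) and Scn8a. Over all 1360 such pairs 57.8% were higher in the Ezh2m+/p+ list, and whether folds of the lists are on the same footing was not tested.

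Genes with several peaks were common, and the spacing followed the parental genome. Of the channel genes with a peak, 18 of 43 (41.9%) and 22 of 53 (41.5%) had at least 2 maternal peaks in Ezh2m+/p+ and Ezh2m-/p+ zygotes, against 31.3% and 36.4% of all protein-coding genes with a peak. On the paternal genome 27 of 43 (62.8%) and 28 of 41 (68.3%) had at least 2, against 57.1% and 60.9%. Neighbouring peaks of a channel gene were separated by a median of 28.2 and 46.8 kb on the maternal and 6.20 and 8.80 kb on the paternal genome, beside 36.8 and 29.0 kb and 5.60 and 5.80 kb over all genes. The 5 genes with most peaks held 43.3% and 39.5% of the paternal and 28.2% and 30.9% of the maternal channel peaks. On the paternal genome 52.8% and 43.2% of channel peaks lay in windows of 1 Mb with 20 or more paternal peaks in each genotype, against 52.9% and 45.6% of all paternal peaks. Every paternal peak of Kcnh1, Kcnk2, Kcne4, Kcnf1, Scn8a and Cacna2d2 lay in such a window, and no paternal peak of Cacna1a, Kcna4 or Cacna2d3 did.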

How the data were processed

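H3K27me2 and input libraries of Ezh2m+/p+ and Ezh2m-/p+ zygotes were analysed, 1 of each per genotype. The authors used Trimmomatic 0.38 for trimming, Bowtie2 for alignment to mm10, Picard for removal of duplicates, SNPsplit for allele assignment, SICER for peak calling with the input as control, and ChIPseeker for annotation; peaks needed a fold above 5 and a length above 1000 bp. The deposited lists give position, length, annotation, distance to the nearest start site and the authors' ratio (fold) of H3K27me2 over input. A deposited coverage table was not used here. The shortest listed length is 999 bp.

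Symbols were found for 11459 of 11472 gene identifiers (99.9%). Peaks overlapped at 1 bp or more, shares carry 95% Wilson intervals, and peaks per 100 kb were counted over RefSeq gene bodies of GRCm38.p6. Promoter windows came from RefSeq, and missing genes were not looked for elsewhere. A window of 1 Mb was peak-rich with at least 20 paternal peaks in each genotype. Overlap and intervals were tested on simulated data. Scripts ran in Python 3.11.15 (pandas 2.3.3, numpy 2.4.6, matplotlib 3.10.9, scipy 1.17.1).

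The members, roles and comparison lists were chosen with earlier results of these data known. Named genes were those with a peak in every list, the 3 with most peaks, the 3 largest folds and the longest peak of each list, start-site peaks shared between genotypes, genes of the chromosome with most channel peaks, and Kcnq1, Kcnk9, Scn1a, Cacna1c, Cacna1a, Kcnma1, Kcnh1 and Kcnj11; some items under this rule are not reported here. Others were named after their values were seen. Alternatives were a minimum length of 2000 bp, a minimum fold of 10, autosomes, lists of equal size, peaks inside genes, covered base pairs, protein-coding genes, a reciprocal overlap of 50%, looser parental matching and, chosen after seeing the data, leaving out Kcnh1. The intervals and limits cover counting error only.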

Additional observations from a re-analysis of the deposited data

Results flagged for a closer look

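The difference between the genotypes ran in opposite directions on the parental genomes for 3 values, and with 1 library per genotype these differences were not tested. Channel genes with a peak numbered 43 in Ezh2m+/p+ zygotes and 53 in Ezh2m-/p+ zygotes on the maternal genome and 43 and 41 on the paternal genome, so that the changes differed by 12 genes. Over all protein-coding genes the share with a peak was higher in Ezh2m-/p+ zygotes on both genomes, at 14.6% and 21.1% maternal and 20.3% and 23.8% paternal. The opposite directions among channel genes were lost with lists of equal size (33.3% and 28.7% maternal, 21.7% and 17.1% paternal) and with a length over 2000 bp (28.7% and 30.2%, 18.6% and 23.3%). The median fold of channel peaks was 7.20 and 22.2 on the maternal and 36.1 and 13.8 on the paternal genome, a difference of 37.3 between the changes, and over all peaks it was 7.37 and 23.7 and 36.1 and 15.8. Kcnip4 had 2 and 0 maternal and 5 and 17 paternal peaks, and the maternal change minus the paternal one was -14 peaks. The maternal 0 counts assigned peaks, and 1 maternal peak of Ezh2m-/p+ zygotes assigned to another gene lay in the Kcnip4 body.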

How the results depend on the processing

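No paired analysis was possible because each genotype has 1 H3K27me2 library and no test was run. Of 104 values under the alternatives, 60 stayed within the 95% interval of the reported value; those that left it follow in the list order Ezh2m+/p+ maternal, Ezh2m+/p+ paternal, Ezh2m-/p+ maternal, Ezh2m-/p+ paternal, and the cause was not tested. None left it with autosomes or covered base pairs. With a fold over 10, genes with a peak were 20.9% and 31.0% (both maternal lists), peaks per 100 kb 0.134, 0.668, 0.255 and 0.595, and genotype overlap 0%, 30.3%, 0% and 27.9%. With a length over 2000 bp, genes with a peak were 18.6%, 30.2% and 23.3% (lists after the first), peaks per 100 kb 0.273, 0.364, 0.304 and 0.419, and the share of the Ezh2m-/p+ maternal list 1.41%. With lists of equal size, genes with a peak were 21.7%, 28.7% and 17.1% and peaks per 100 kb 0.279, 0.219 and 0.176 (lists after the first), and genotype overlap 0%, 16.9%, 0% and 19.2%. With peaks inside genes, genes with a peak were 20.2%, 25.6%, 21.7% and 22.5%, and the list shares other than that of the Ezh2m-/p+ maternal list 1.77%, 1.61% and 1.49%. Among protein-coding genes the paternal shares were 1.16% and 1.12%, and without Kcnh1, an alternative chosen after seeing the data, the Ezh2m+/p+ paternal share was 0.847%. A reciprocal overlap of 50% gave 35.4% and 28.6% for the paternal lists. In place of 0%, 34.6% and 41.8% of maternal peaks lay at a gene with a paternal peak, and 6.41% and 9.09% within 10 kb of one. The alternatives were run for channel genes and their peaks only, with no value for all genes or all peaks beside them. Depth of the parental genomes is not part of the lists, and its part in the counts was not tested. The part of the lower depth of the Ezh2m-/p+ libraries was not tested either.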
